A study of Mus musculus with 12 samples.

Results

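The interferon response was followed through 9 genes in all libraries of the study: the transcription factor genes Stat2, Irf1, Irf7 and Irf9, and the interferon-stimulated genes Isg15, Ifit1, Ifit3, Bst2 and Rsad2. They were chosen by name, as the rows of the deposited count matrix whose Ensembl identifiers map to these mouse symbols. Each symbol matched 1 row, giving 9 of 52636 genes. All 9 passed the filter on low counts and were among 22320 genes tested.

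The samples were GFP+ smooth muscle cells (SMCs) sorted from the aortas of 6 mice, with the ascending/arch and the descending segment of each aorta sequenced separately, for 12 libraries. Control GFPiSMC mice (n = 3) carried Myh11-CreERT2, a tamoxifen-inducible Cre recombinase under a promoter active in SMCs, and mT/mG, a reporter that turns cells with Cre activity green. Tgfbr1/2iSMCKO mice (n = 3) carried the same Cre and reporter together with Tgfbr1 f/f and Tgfbr2 f/f, floxed alleles of both TGF-β receptors. Mice of both genotypes were on a C57BL/6J background, received tamoxifen i.p. for 5 days and were 12 weeks old, so Cre activity, the reporter and the drug were common to every group. Tamoxifen for the mature aorta was given at 2 mg/d from 11 weeks, and the labels also name 1 mg/d from 4 weeks, a scheme used for a subgroup. Only the deletion mice carried floxed alleles, so the mouse line and the deletion cannot be told apart. The study asked what short-term loss of TGF-β receptors changes in SMCs of the mature aorta.

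Type I interferons signal through a receptor bound to the kinases JAK1 and TYK2, which activate STAT proteins. STAT2 and IRF9 are parts of the complex ISGF3, which binds the interferon-stimulated response element (ISRE) in front of antiviral genes. Type II interferon acts mainly through the gamma-activated site (GAS), with IRF1 as an early product, and IRF7 amplifies the type I response. ISG15 is a ubiquitin-like modifier, IFIT1 and IFIT3 bind viral RNA or each other, BST2 (tetherin) holds budding virus at the cell surface, and RSAD2 (viperin) makes a nucleotide that stops viral polymerases. Vascular SMCs, like most cells, hold receptors for both interferon types.

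The stretch from 160 to 51 bases before the annotated start is shown for the 6 genes with a motif match inside it. Stretch and genes were picked for holding matches, so the presence of matches in it is not a result. The sequences are from RefSeq (GRCm38.p6), 5′ to 3′ on the strand of the gene. Capitals mark matches to the ISRE core GAAANNGAA or the GAS TTCNNNGAA, on either strand, and neighbouring matches overlap. The stretches are Irf1 chr11:53769854-53769963 (+ strand), Isg15 chr4:156200869-156200978 (- strand), Ifit1 chr19:34640729-34640838 (+ strand), Ifit3 chr19:34583369-34583478 (+ strand), Bst2 chr8:71537523-71537632 (- strand) and Rsad2 chr12:26456503-26456612 (- strand).
Irf1: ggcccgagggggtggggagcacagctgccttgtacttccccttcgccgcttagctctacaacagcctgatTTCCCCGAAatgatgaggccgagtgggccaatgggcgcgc
Isg15: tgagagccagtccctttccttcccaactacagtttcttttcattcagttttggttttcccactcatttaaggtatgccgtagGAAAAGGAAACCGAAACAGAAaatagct
Ifit1: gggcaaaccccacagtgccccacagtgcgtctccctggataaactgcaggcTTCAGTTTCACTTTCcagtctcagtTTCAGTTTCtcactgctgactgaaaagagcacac
Ifit3: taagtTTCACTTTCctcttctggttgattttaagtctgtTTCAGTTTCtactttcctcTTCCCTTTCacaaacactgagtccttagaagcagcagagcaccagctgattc
Bst2: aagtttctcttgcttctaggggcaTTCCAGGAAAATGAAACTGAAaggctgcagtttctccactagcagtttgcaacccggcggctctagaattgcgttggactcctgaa
Rsad2: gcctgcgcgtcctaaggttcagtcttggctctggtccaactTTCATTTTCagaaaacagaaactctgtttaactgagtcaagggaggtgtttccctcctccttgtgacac
All 9 genes had an entry in the promoter table, with 11 windows of 300 bases between them. The ISRE core was held by 6 of the 9 genes, against 8.56% of 32851 promoter windows. Isg15, Ifit1 and Ifit3 each had 3 matches, Bst2 had 2, and Rsad2 and Stat2 had 1, the last of these 221 bases before the start. The GAS was held by 2 of the 9, Irf1 and Bst2, against 8.3% of windows. The 9 are counted by gene, some with 2 windows, and the shares by window, so the units differ. In Bst2 the GAS match overlaps the first ISRE core. Neither motif was found in the window of Irf7 or in either of the 2 windows of Irf9. A match describes letters and was not tested as a binding site.

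**Figure D1:**
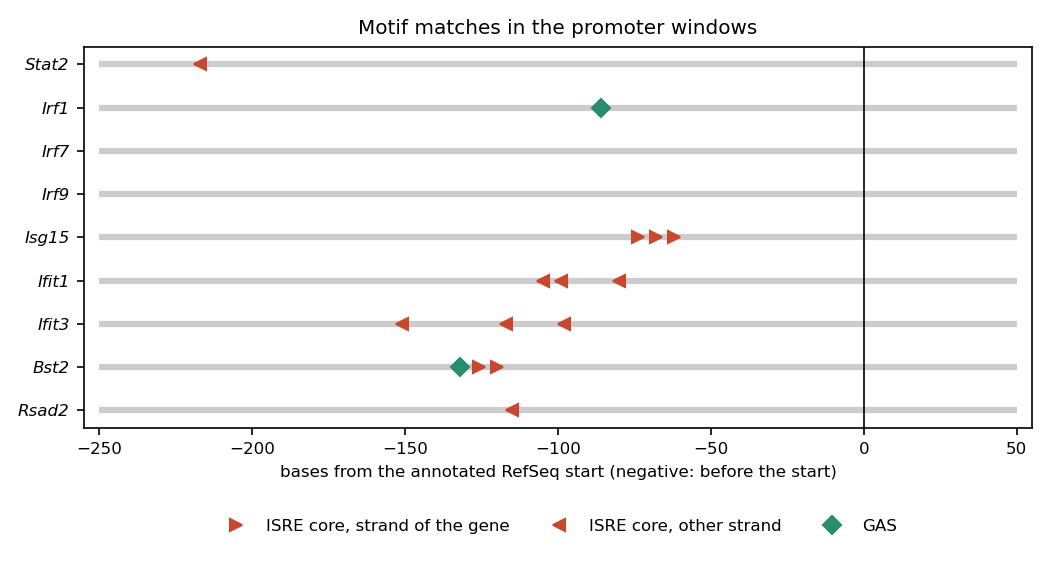
Position of motif matches (x axis, bases from the annotated RefSeq start) in the promoter window of each gene (grey bar, 250 bases before to 50 after the start). Triangles are ISRE cores, pointing right on the strand of the gene and left on the other strand, and diamonds are GAS matches. The matches of Isg15, Ifit1, Ifit3, Bst2 and Rsad2 lie within 160 bases before the start.

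Total counts ranged from 20467027 to 31392396 per library, from 9208 to 20000 sorted cells. Libraries of the same number within a genotype are taken to be the segments of 1 animal, so the 12 are not fully independent, and p-values measure only the spread between these samples. SMC markers were abundant (8 markers summed to between 33927 and 47855 CPM, counts scaled to the library total). Leukocyte markers were sparse, at 7.82 to 15.5 CPM in GFPiSMC descending, 14.4 to 21.1 in GFPiSMC ascending/arch, 13.7 to 19.5 in Tgfbr1/2iSMCKO descending and 16.1 to 23.2 in Tgfbr1/2iSMCKO ascending/arch for 12 genes together. The targeted genes had 235 ± 35.3 CPM (SD, n = 6 libraries) in GFPiSMC and 252 ± 33.0 in Tgfbr1/2iSMCKO for Tgfbr1, and 106 ± 13.3 and 89.0 ± 12.5 for Tgfbr2. Neither differed by edgeR's quasi-likelihood test (adjusted p = 0.790 and 0.233), and a count over a whole gene does not measure the deletion of part of it. Both libraries of Tgfbr1/2iSMCKO animal 3, of which 1 had the highest level of all 12 for Stat2, Irf1, Irf9, Isg15 and Bst2, had the highest levels of GC-rich relative to GC-poor genes (0.47 and 0.44 on the log2 scale), the lowest mitochondrial shares (2.39% and 2.49%) and the lowest SMC marker sums (33927 and 35202 CPM), and the part of these in the differences was not tested beyond the fit with GC offsets and the fits without that animal. In sorted pools, fewer responding cells and less RNA per cell cannot be told apart.

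Over all 12 libraries, 8 of the 9 genes had a log2 fold change above 0 in Tgfbr1/2iSMCKO, beside 53.7% of all genes. Irf9 alone of the 9 passed the test. Irf9 rose 1.88-fold, from 16.2 ± 3.58 CPM in GFPiSMC to 30.6 ± 9.73 in Tgfbr1/2iSMCKO (SD, n = 6 libraries of 3 mice). That is 1 of 9 genes at an adjusted p under 0.05 (edgeR, segment and genotype in the model, Benjamini-Hochberg over all genes), where 5.03% of the 22320 genes passed and 1.8% passed as higher. None of the 9 passed with a change of more than 2-fold as well, a rule met by 2.67% of all genes. In DESeq2, 2 of the 9 passed (Irf9 and Ifit1), both higher, where 11.3% of 17946 genes with an adjusted p passed and 4.96% passed as higher. At an unadjusted p under 0.05, 6 of the 9 had a difference in edgeR (Stat2, Irf1, Irf9, Isg15, Ifit1 and Bst2), beside 16.1% of all genes. The median log2 fold change was 0.87 for the 9 genes and 0.04 for all genes.

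**Figure D2:**
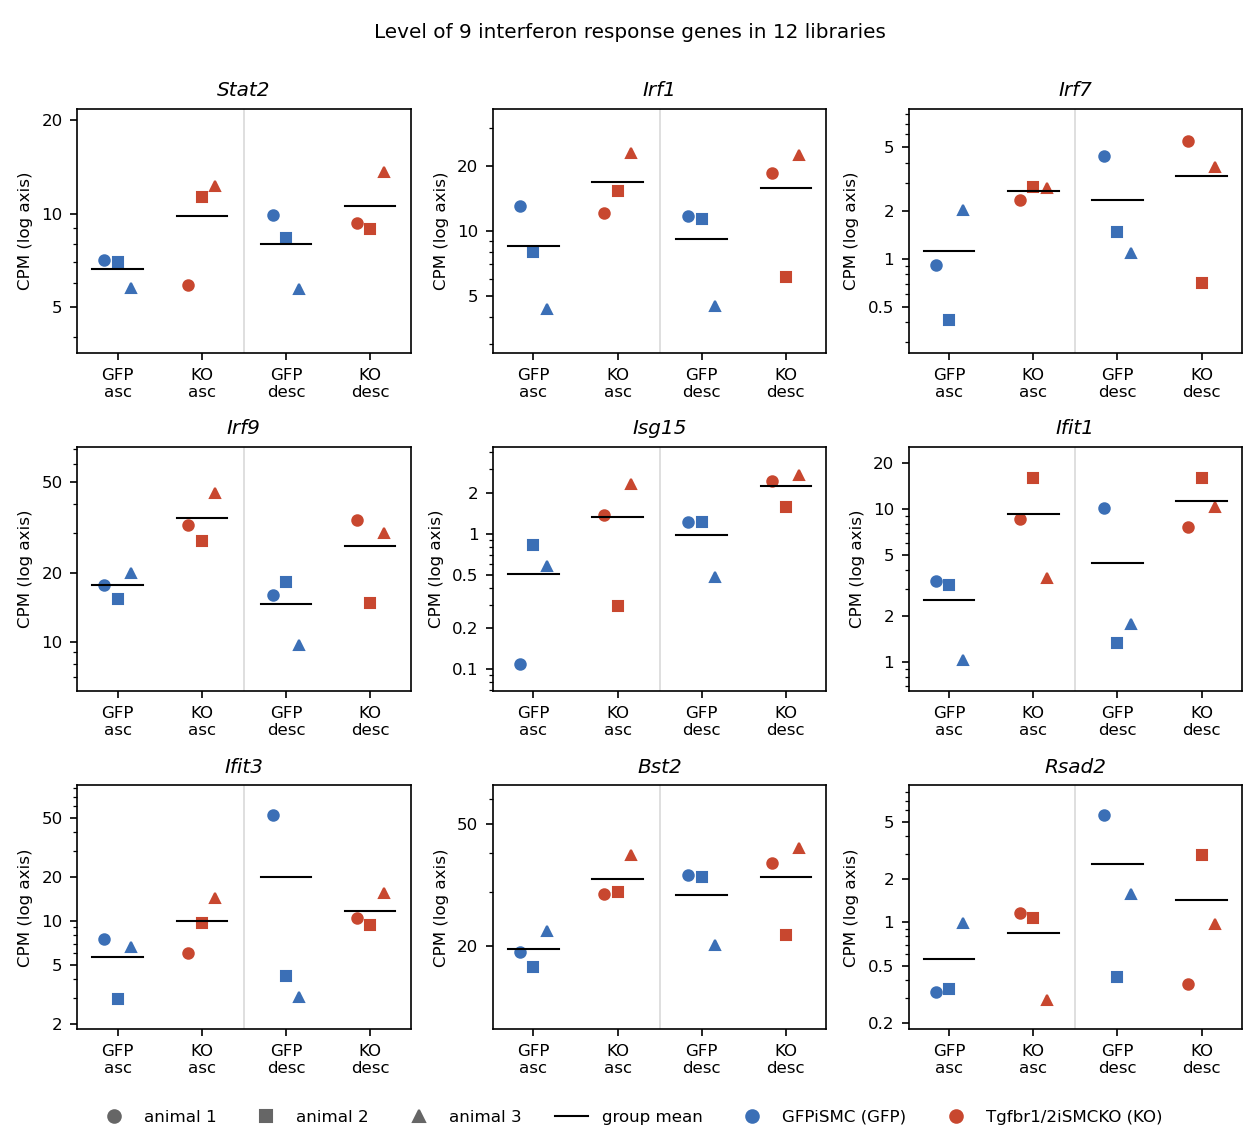
CPM (log axis) of each gene in the 12 libraries, by genotype (GFP, GFPiSMC in blue; KO, Tgfbr1/2iSMCKO in red) and segment (asc, ascending/arch; desc, descending), with a symbol for each animal and a line at each group mean. Irf9 in the ascending/arch segment spans 15.3 to 19.95 CPM in GFPiSMC and 27.8 to 44.7 in Tgfbr1/2iSMCKO, while Ifit3 has 1 GFPiSMC descending library at 52.2.

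The factors of ISGF3 were led by Irf9 (ENSMUSG00000002325.14; GRCm38 chromosome 14, 55603571 to 55610030). Irf9 was at 17.7, 15.3 and 19.95 CPM in the ascending/arch libraries of GFPiSMC animals 1, 2 and 3, and at 32.4, 27.8 and 44.7 in those of Tgfbr1/2iSMCKO. Its descending libraries held 16.0, 18.3 and 9.68 CPM in GFPiSMC and 34.0, 14.7 and 30.0 in Tgfbr1/2iSMCKO. The genotypes did not overlap in the ascending/arch segment, and in the descending segment Tgfbr1/2iSMCKO animal 2 fell among the controls. The log2 fold change was 0.91 (SE 0.23, edgeR adjusted p = 0.0363). The call was kept with DESeq2 (adjusted p = 0.00249) and lost with both segments of an animal summed (log2 fold change 0.93, adjusted p = 0.152), with the animal as a random effect in limma-voom (adjusted p = 0.0640), without the filter on low counts (adjusted p = 0.0509), without the descending library of GFPiSMC animal 1 (adjusted p = 0.0636), and on leaving out any 1 animal but Tgfbr1/2iSMCKO animal 2 (adjusted p = 0.0979 without GFPiSMC animal 2, 0.144 without GFPiSMC animal 3, 0.145 without GFPiSMC animal 1, 0.151 without Tgfbr1/2iSMCKO animal 3 and 0.170 without Tgfbr1/2iSMCKO animal 1). That descending library of Tgfbr1/2iSMCKO animal 2 had the lowest level of GC-rich relative to GC-poor genes of all 12 (-0.47 on the log2 scale), and with offsets for GC content the Irf9 difference was 0.90 (adjusted p = 0.00997). The start of Irf9 shares 123 bases with the end of Rnf31 on the same strand, so reads there are not assigned with certainty.

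Stat2 (ENSMUSG00000040033.16; chromosome 10, 128270559 to 128292849) encodes the other factor of ISGF3 in this set. Its ascending/arch levels were 7.11, 7.0 and 5.78 CPM in GFPiSMC and 5.90, 11.3 and 12.2 in Tgfbr1/2iSMCKO. Its descending levels were 9.90, 8.34 and 5.70 CPM against 9.36, 8.91 and 13.6. The genotypes overlapped in both segments, with the 3 highest values of the gene all in Tgfbr1/2iSMCKO. The log2 fold change of 0.49 (SE 0.23) had an unadjusted p of 0.0495 in edgeR and an adjusted p of 0.308.

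Irf1 (ENSMUSG00000018899.16; chromosome 11, 53770014 to 53778374), an early product of interferon-γ signaling, was at 13.1, 8.0 and 4.34 CPM in ascending/arch GFPiSMC libraries and at 12.2, 15.3 and 23.1 in Tgfbr1/2iSMCKO. The descending libraries had 11.7, 11.4 and 4.5 CPM in GFPiSMC and 18.6, 6.14 and 22.6 in Tgfbr1/2iSMCKO. Both libraries of GFPiSMC animal 3 were low and both of Tgfbr1/2iSMCKO animal 3 were high, and the genotypes overlapped. The log2 fold change was 0.88 (SE 0.36, edgeR adjusted p = 0.232). Without strand in the library kit, reads in the 907 bases that Gm17334 shares with Irf1 on the opposite strand cannot be told apart.

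Irf7 (ENSMUSG00000025498.15; chromosome 7, 141262706 to 141266481), the amplifier of the type I response, was a low transcript of 12 to 131 counts per library. It was at 0.917, 0.412 and 2.02 CPM in ascending/arch GFPiSMC and 2.33, 2.81 and 2.77 in ascending/arch Tgfbr1/2iSMCKO. Descending values ran 4.41, 1.47 and 1.08 CPM in GFPiSMC and 5.42, 0.701 and 3.78 in Tgfbr1/2iSMCKO. The ascending/arch genotypes were apart and the descending ones were mixed. The log2 fold change over 12 libraries was 0.87 (SE 0.52, adjusted p = 0.481). Irf7 shares 45 bases with Phrf1 on the opposite strand, a gene averaging 247 counts per library. Without strand, reads there cannot be told apart.

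Among the interferon-stimulated effectors, Ifit1 (ENSMUSG00000034459.8; chromosome 19, 34640871 to 34650009) had the largest fitted difference of the 9. Ascending/arch levels were 3.37, 3.19 and 1.03 CPM in GFPiSMC and 8.55, 15.9 and 3.54 in Tgfbr1/2iSMCKO. Descending levels were 10.2, 1.33 and 1.77 CPM in GFPiSMC and 7.58, 15.8 and 10.4 in Tgfbr1/2iSMCKO. All 6 Tgfbr1/2iSMCKO libraries stood above 5 of the 6 GFPiSMC libraries, and the descending library of GFPiSMC animal 1 lay among them. The 3.05-fold difference (log2 fold change 1.61, SE 0.53) did not pass in edgeR (adjusted p = 0.116) and passed in DESeq2 (adjusted p = 0.0172). Without the descending library of GFPiSMC animal 1, an alternative chosen after the data were seen, it was 2.29 on the log2 scale with an edgeR adjusted p of 0.0136, and without both libraries of that animal it was 2.47 (adjusted p = 0.0197). It was 1.14 (adjusted p = 0.323) without Tgfbr1/2iSMCKO animal 2, 1.23 (0.370) without GFPiSMC animal 3 and 1.46 (0.299) without GFPiSMC animal 2.

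Ifit3 (ENSMUSG00000074896.3; chromosome 19, 34583531 to 34588731) had its extreme value in a control library. Ascending/arch GFPiSMC libraries held 7.55, 2.92 and 6.65 CPM and Tgfbr1/2iSMCKO libraries 6.07, 9.66 and 14.4. The descending GFPiSMC libraries held 52.2, 4.24 and 3.01 CPM and those of Tgfbr1/2iSMCKO 10.4, 9.36 and 15.3. The library of animal 1, with 1362 counts, stood apart from the other 5 of its genotype, which lay between 2.92 and 7.55 CPM. The fitted genotype difference was 0.02 on the log2 scale (SE 0.62, adjusted p = 0.994) with that library and 1.2 (SE 0.34, adjusted p = 0.0830) without it. The near-identical paralog Ifit3b, which can share reads with Ifit3, was also highest in that library, at 18.6 CPM against at most 9.95 in the other 11.

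Rsad2 (ENSMUSG00000020641.16; chromosome 12, 26442746 to 26456452) was a low transcript, with 9 to 146 counts per library. It was at 0.330, 0.343 and 0.991 CPM in ascending/arch GFPiSMC and 1.17, 1.07 and 0.290 in Tgfbr1/2iSMCKO. In the descending segment it was at 5.60, 0.421 and 1.57 CPM against 0.373, 2.93 and 0.978. The genotypes were mixed throughout, and the highest value was again in the descending library of GFPiSMC animal 1. The fitted genotype difference was -0.15 on the log2 scale (SE 0.68, adjusted p = 0.958), against 0.57 (SE 0.60, adjusted p = 0.794) without that library.

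Isg15 (ENSMUSG00000035692.6; chromosome 4, 156199424 to 156200818) had 3 to 81 counts per library. The ascending/arch values were 0.110, 0.824 and 0.578 CPM in GFPiSMC and 1.37, 0.291 and 2.32 in Tgfbr1/2iSMCKO. The descending values were 1.23, 1.23 and 0.482 CPM in GFPiSMC and 1.57 to 2.73 in Tgfbr1/2iSMCKO, where animals 1, 2 and 3 had 2.44, 1.57 and 2.73. The descending genotypes did not overlap, while in the ascending/arch segment Tgfbr1/2iSMCKO animal 2 had only 6 counts. The 2.45-fold difference (log2 1.29, SE 0.51) did not pass (adjusted p = 0.201).

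Bst2 (ENSMUSG00000046718.8; chromosome 8, 71534255 to 71537456) was the most abundant of the 9 by CPM. It was at 19.1, 17.1 and 22.3 CPM in ascending/arch GFPiSMC and 29.5, 29.9 and 39.5 in Tgfbr1/2iSMCKO. Descending libraries held 33.9, 33.5 and 20.2 CPM against 37.4, 21.6 and 41.7. The ascending/arch genotypes were apart and the descending ones overlapped. Over 12 libraries the log2 fold change was 0.48 (SE 0.21, adjusted p = 0.267).

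Per kilobase of exon, Bst2 led with a median of 32.9 CPM per kb over 12 libraries. Ifit3 followed at 4.85, Irf9 at 3.55, Irf1 at 3.01, Ifit1 at 2.09, Isg15 at 1.62 and Stat2 at 1.46, with Irf7 at 0.577 and Rsad2 at 0.227. The lowest Bst2 library (19.0) was above every library of the other 8 genes except the descending library of GFPiSMC animal 1 for Ifit3 (29.9). Below Bst2, the ranges of each gene and the next in this order overlapped.

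Within segments, no gene of the set passed the test. In the ascending/arch segment all 9 log2 fold changes were above 0, from 0.56 for Stat2 to 1.87 for Ifit1, beside 50.9% of all genes. There 0 of 9 passed in edgeR or in DESeq2, with 1.41% of all genes passing in edgeR and 5.06% in DESeq2. At an unadjusted p under 0.05, 3 of the 9 had a difference there by either tool, beside 11.4% of all genes in edgeR. In edgeR these were Irf9 (0.98, SE 0.34), Ifit1 (1.87, SE 0.78) and Bst2 (0.76, SE 0.29). Every Tgfbr1/2iSMCKO library was above every GFPiSMC library for 4 of 9 genes in that segment (Irf7, Irf9, Ifit1 and Bst2), as for 8.87% of all genes.

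The descending segment was less uniform. Of the 9 genes, 7 had a fold change above 0 on the log2 scale, beside 53.7% of all genes. Ifit3 (-0.76, SE 0.84) and Rsad2 (-0.83, SE 0.91) were below 0. None passed in edgeR, where 1.72% of all genes did, or in DESeq2, where 5% did. An unadjusted p under 0.05 was found for 1 of the 9 in both (Irf9, 0.84, SE 0.34), beside 10.7% of all genes in edgeR. The genotypes did not overlap, with Tgfbr1/2iSMCKO higher, for 1 of 9 (Isg15), as for 7.19% of all genes. Without the descending library of GFPiSMC animal 1, all 9 fold changes were above 0, Ifit3 at 1.69 (SE 0.50, adjusted p = 0.233) and Rsad2 at 0.53 (SE 0.93, adjusted p = 1.00). Over the whole 12 libraries, no gene of the 9 had all Tgfbr1/2iSMCKO libraries above all GFPiSMC libraries, an arrangement found in 1.51% of all genes.

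**Figure D3:**
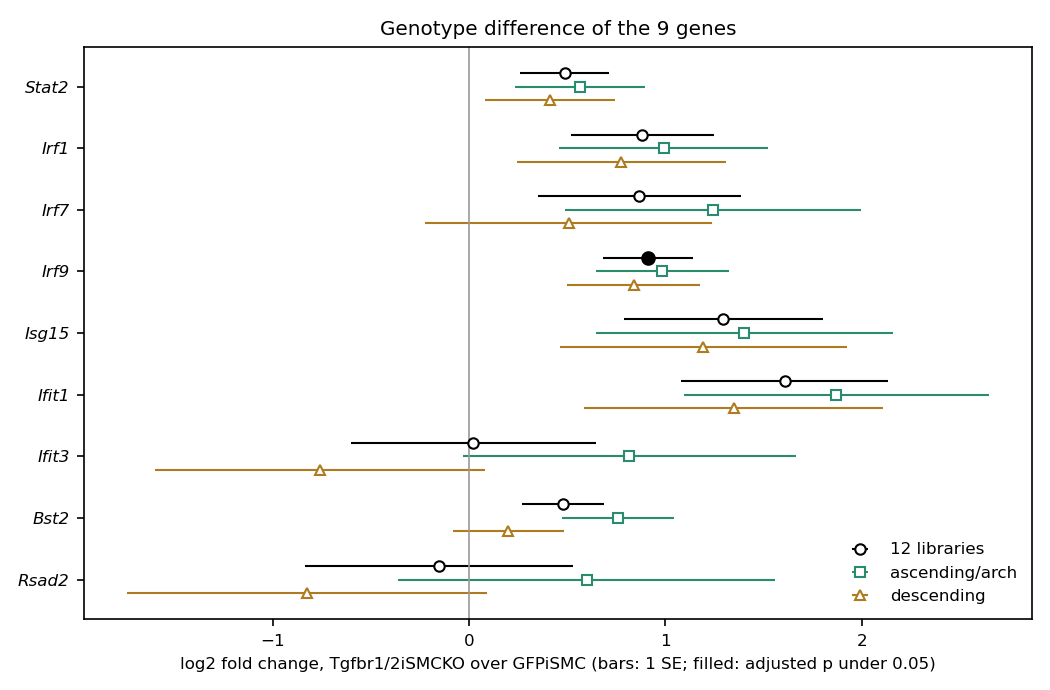
Log2 fold change of Tgfbr1/2iSMCKO over GFPiSMC (x axis, bars 1 SE) for each gene over 12 libraries (black circles), in the ascending/arch segment (green squares) and in the descending segment (brown triangles), with filled symbols where the edgeR adjusted p was under 0.05. Irf9 over 12 libraries is the filled symbol (0.91), and Ifit3 and Rsad2 lie on opposite sides of 0 in the segments.

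The genotype effect did not pass a test of difference between segments for any gene of the set. The descending effect minus the ascending/arch effect was below 0 for all 9, while it was above 0 for 49.9% of all genes. For the 9 it lay between -1.57 (Ifit3, SE 1.19) and -0.15 (Irf9, SE 0.47) on the log2 scale. None of the 9 had an unadjusted p under 0.05 in edgeR or in DESeq2, beside 659 of all genes (2.95%) in edgeR. After adjustment 0% of all genes passed in edgeR and 8, or 0.0359%, passed in DESeq2. Without the descending library of GFPiSMC animal 1, 4 of the 9 differences were above 0, with Ifit3 at 0.87 and Ifit1 at 1.00. The SE of this difference was smallest for Bst2 (0.40) and largest for Rsad2 (1.33).

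Between the segments of GFPiSMC aortas, 0 of 9 genes passed in edgeR or in DESeq2, beside 0.376% of all genes in edgeR and 1.54% in DESeq2. Rsad2 had the largest difference, descending over ascending/arch, of 2.19 on the log2 scale (SE 0.97, adjusted p = 0.806). It was the 1 gene of the 9 with an unadjusted p under 0.05 in edgeR, beside 5.98% of all genes. Ifit3 was at 1.80 (SE 0.86) and became -0.64 (SE 0.48) without the descending library of animal 1. Ifit1 likewise went from 0.80 (SE 0.76) to -0.70 (SE 0.65), while Bst2 was at 0.58 (SE 0.29) with that library and 0.47 (SE 0.33) without it. In Tgfbr1/2iSMCKO aortas 0 of 9 differed between segments by either tool, beside 0.112% of all genes passing in edgeR and 0.872% in DESeq2. None of the 9 had an unadjusted p under 0.05, beside 3.68% of all genes in edgeR. The median of the 9 differences was 0.22.

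**Figure D4:**
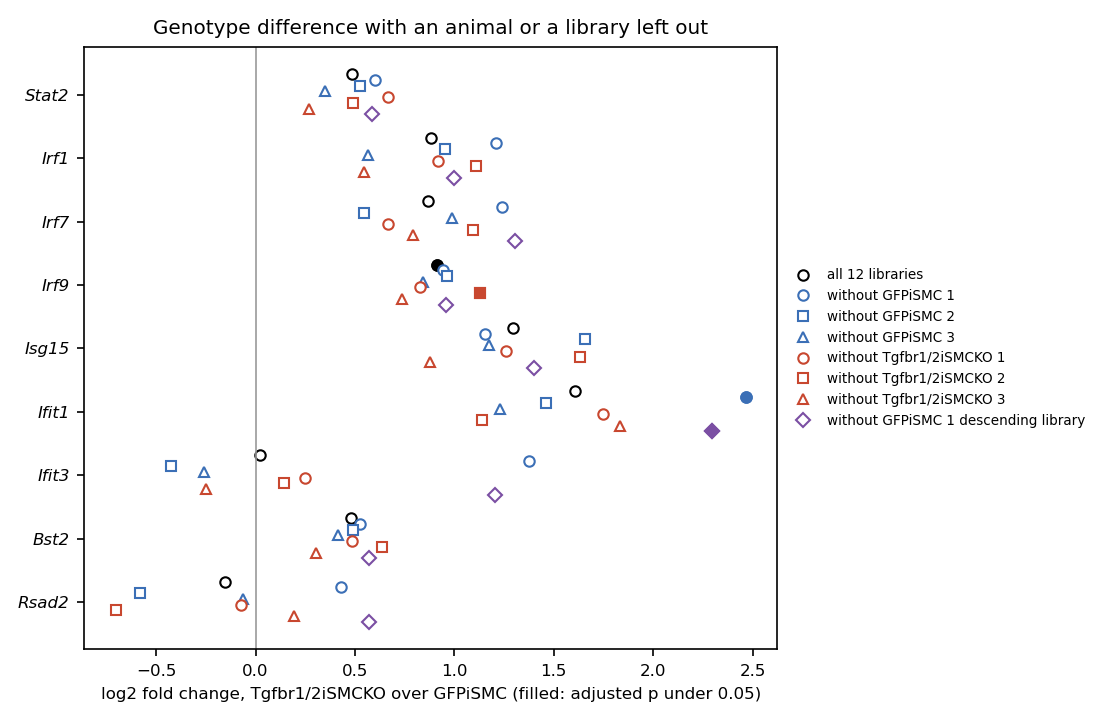
Log2 fold change of Tgfbr1/2iSMCKO over GFPiSMC (x axis) for each gene with all 12 libraries, with both libraries of 1 animal left out in turn, and with the descending library of GFPiSMC animal 1 alone left out (diamonds), with filled symbols where the edgeR adjusted p was under 0.05. Ifit1 moves from 1.61 to 2.47 without GFPiSMC animal 1 and to 1.14 without Tgfbr1/2iSMCKO animal 2, Ifit3 from 0.02 to 1.37, and Irf9 stays between 0.74 and 1.13.

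Other genes of the pathway were read from 10 lists of 133 genes beyond the 9, of which 97 passed the filter. Of these 97, 9 rose in Tgfbr1/2iSMCKO over 12 libraries and 0 fell in edgeR, where 1.8% of all genes tested rose and 3.23% fell. At an unadjusted p under 0.05 there were 25 higher and 3 lower, beside 16.1% of all genes in either direction. In DESeq2, 19 rose and 0 fell, beside 4.96% and 6.35% of all genes with an adjusted p. The median log2 fold change of the 97 was 0.29, beside 0.04 over all genes. The 9 that rose in edgeR belonged to the feedback, antiviral, GTPase and antigen presentation lists.

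Interferon ligands were near absent. None of 21 type I, II and III interferon genes passed the filter, and no library had more than 17 counts for any of them. Together they gave 0.911 to 2.51 CPM in GFPiSMC and 1.06 to 2.64 CPM in Tgfbr1/2iSMCKO libraries. The most abundant were the near-identical family members Ifna2, Ifna7 and Ifna16, with means of 0.183, 0.170 and 0.161 CPM over 12 libraries, so reads among them are not assigned with certainty.

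Receptors and their kinases were well measured. Of these 9 genes, 0 passed in edgeR, where 5.03% of all genes did, or in DESeq2, where 11.3% did. In edgeR 1 had an unadjusted p under 0.05, beside 16.1% of all genes. At these shares a count of 0 in so short a list does not show that its genes were unchanged. Ifngr2, a chain of the interferon-γ receptor, was at 191 ± 38.0 CPM in GFPiSMC and 151 ± 15.6 in Tgfbr1/2iSMCKO (SD, n = 6; log2 fold change -0.33, SE 0.11, adjusted p = 0.133). Jak1, a kinase of both receptor types, differed by 0.37 on the log2 scale (SE 0.19, adjusted p = 0.384), and Ifngr1 by 0.20 (SE 0.13, adjusted p = 0.516). Of the 7 other STAT and IRF factors, 0 passed by either tool and 1 had an unadjusted p under 0.05 in edgeR, against the same shares. Irf2, which competes with IRF1 at its sites, was at 0.20 (SE 0.17, adjusted p = 0.667), and Irf3, the factor activated by nucleic acid sensors, at 0.34 (SE 0.28, adjusted p = 0.675).

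Sensors of viral nucleic acid and their adaptors had 0 of 11 genes passing in edgeR, beside 5.03% of all genes. An unadjusted p under 0.05 was found for 2 of them, beside 16.1% of all genes. In DESeq2 1 passed (Ddx58), beside 11.3% of all genes with an adjusted p. Tbk1, the kinase that phosphorylates IRF3, was at 0.06 (SE 0.23, adjusted p = 0.946), the mitochondrial adaptor gene Mavs at 0.35 (SE 0.36, adjusted p = 0.750) and Ddx58, which encodes the RNA sensor RIG-I, at 0.51 (SE 0.17, adjusted p = 0.123). Chemokine genes had 0 of 3 passing by either tool and none at an unadjusted p under 0.05, against the same shares. Cxcl9 was at -0.47 (SE 0.41), Ccl2 at -0.08 (SE 0.52) and Ccl5 at 0.35 (SE 1.35) on the log2 scale.

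Usp18, the protease that removes ISG15 and also dampens the type I receptor, rose from 4.62 ± 1.69 CPM in GFPiSMC to 13.7 ± 5.87 in Tgfbr1/2iSMCKO (SD, n = 6; log2 fold change 1.58, SE 0.26, edgeR adjusted p = 0.00245). It was the 1 gene that rose among 4 tested in the ISG15 conjugation list, and also among 4 tested in the feedback list, which share it. This held in edgeR and in DESeq2, where 1.8% and 4.96% of all genes rose. Its 6 GFPiSMC libraries lay between 3.05 and 7.6 CPM and its 6 Tgfbr1/2iSMCKO libraries between 7.42 and 24.7, overlapping by a single pair of libraries.

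Interferon-inducible GTPases are large and immunity-related proteins that attack vacuoles of intracellular microbes. In edgeR 4 of 14 genes rose and 0 fell, beside 1.8% and 3.23% of all genes, with a median log2 fold change of 0.73. In DESeq2 6 of the 14 rose and 0 fell, beside 4.96% and 6.35% of all genes with an adjusted p. Gbp3 went from 3.43 ± 1.55 to 11.1 ± 2.95 CPM (log2 fold change 1.72, adjusted p = 0.00282) and Gbp7 from 14.3 ± 4.16 to 32.4 ± 4.03 CPM (1.18, adjusted p = 0.00246). Irgm1 went from 30.4 ± 2.42 to 47.9 ± 5.93 CPM (0.65, adjusted p = 0.00691) and Igtp from 10.7 ± 3.8 to 18.8 ± 3.66 CPM (0.83, adjusted p = 0.0477). For Gbp3, Gbp7 and Irgm1, 3 of the 14, every Tgfbr1/2iSMCKO library was above every GFPiSMC library. This arrangement was found in 7 of the 97 pathway genes and in 1.51% of all genes. Gbp3 passed also within the ascending/arch segment (2.20, adjusted p = 0.0128).

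The antiviral effector list had 2 of 30 genes that rose and 0 that fell in edgeR, beside 1.8% and 3.23% of all genes, with a median of 0.24. In DESeq2 9 of the 30 rose and 0 fell, beside 4.96% and 6.35% of all genes with an adjusted p. Xaf1, an interferon-induced promoter of cell death, rose from 6.46 ± 1.97 to 16.8 ± 5.20 CPM (log2 fold change 1.40, adjusted p = 0.00302), also within the descending segment (1.55, adjusted p = 0.0459). Ifitm3, which blocks viral entry at endosomes, rose from 187 ± 35.9 to 302 ± 70.1 CPM (0.70, adjusted p = 0.0223), and its neighbour Ifitm2 was at 937 ± 132 and 728 ± 186 CPM (-0.37, adjusted p = 0.280). The list of MHC class I presentation had 2 of 16 genes that rose by either tool, beside 1.8% of all genes in edgeR and 4.96% in DESeq2. Psmb10, a subunit of the immunoproteasome, was at 11.2 to 15.5 CPM in the 6 GFPiSMC libraries and 21.03 to 23.5 in the 6 Tgfbr1/2iSMCKO libraries (0.75, adjusted p = 0.00647). H2-T23, a nonclassical class I gene, rose from 5.96 ± 1.92 to 14.1 ± 3.89 CPM (1.22, adjusted p = 0.0161), and also within the ascending/arch segment (1.61, adjusted p = 0.0494). The classical H2-K1 (-0.20, adjusted p = 0.706) and B2m (-0.22, adjusted p = 0.604) did not pass.

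Some of these calls rested on few animals. With both segments of an animal summed, Usp18 (adjusted p = 0.0475), Xaf1 (0.0485), Gbp3 (0.0188) and Gbp7 (0.0450) passed, and Irgm1 (0.105), Psmb10 (0.110), H2-T23 (0.1004), Ifitm3 (0.143) and Igtp (0.188) did not. With GC offsets Ifitm3 did not pass (0.0837). Without GFPiSMC animal 3 the adjusted p was 0.0656 for Irgm1, 0.0641 for Psmb10, 0.0621 for H2-T23, 0.0538 for Ifitm3 and 0.214 for Igtp. Psmb10 was lost also without Tgfbr1/2iSMCKO animal 1 (0.0514), and H2-T23 without GFPiSMC animal 2 (0.0907), Tgfbr1/2iSMCKO animal 1 (0.0795) or Tgfbr1/2iSMCKO animal 3 (0.0604). Ifitm3 was lost without GFPiSMC animal 1 (0.126), GFPiSMC animal 2 (0.072) or Tgfbr1/2iSMCKO animals 1 (0.133) or 2 (0.0918), and without the descending library of GFPiSMC animal 1 (0.0568). Igtp was lost on leaving out any of the 6 animals (0.0575 to 0.214). Within segments, 2 of the 97 pathway genes passed in edgeR in the ascending/arch and 1 in the descending segment. Of all genes, 1.41% and 1.72% passed there. With 1 animal left out, 0 or 1 and 0 to 3 pathway genes passed. In DESeq2, 13 passed in the ascending/arch and 8 in the descending segment, beside 5.06% and 5% of all genes with an adjusted p. Gbp3, Gbp7, Usp18 and Xaf1 passed over the 12 libraries whichever animal was left out.

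Promoter windows were at hand for 8 of these 9 genes, and 6 of the 8 held the ISRE core and 3 the GAS. Of all promoter windows, 8.56% and 8.3% held them. Xaf1 and Psmb10 held neither. Usp18 is named only.

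**Figure D5:**
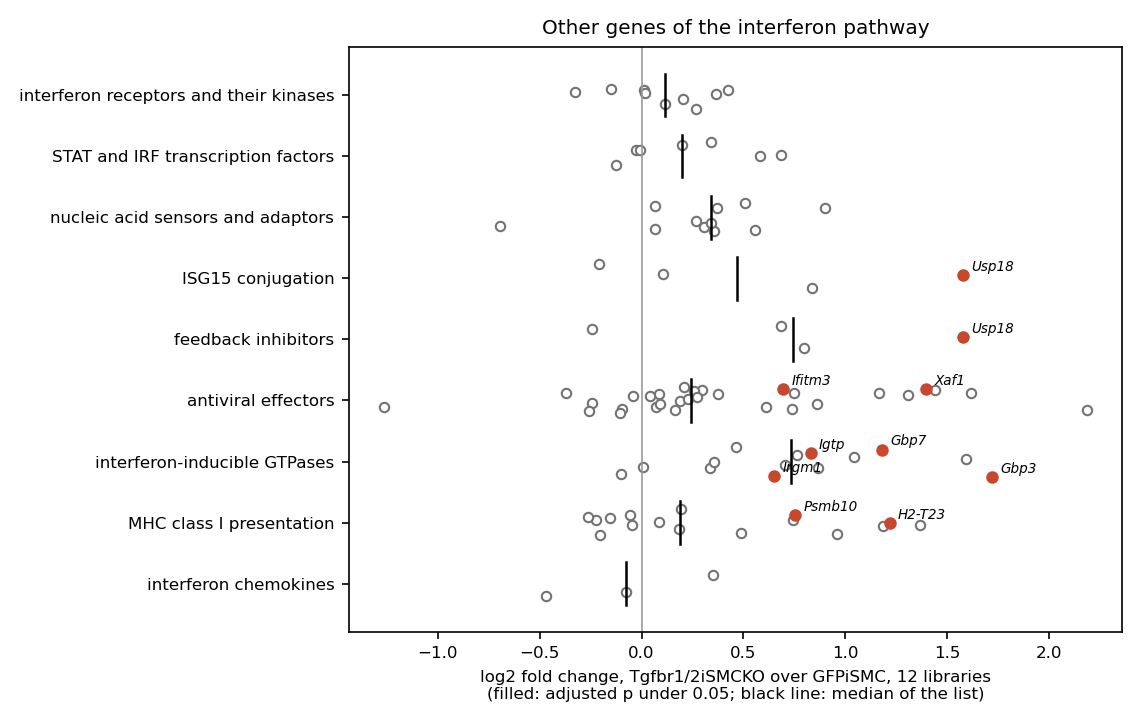
Log2 fold change of Tgfbr1/2iSMCKO over GFPiSMC over 12 libraries (x axis) for genes of 9 pathway lists without the 9 members, with filled points for an edgeR adjusted p under 0.05 and a line at each list's median. The filled points all lie to the right of 0, between 0.65 (Irgm1) and 1.72 (Gbp3), and Usp18 appears in both lists that hold it.

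Markers of other cell types were set beside these differences. Of all genes, 5.03% passed the genotype test in edgeR and 11.3% of those with an adjusted p in DESeq2. In edgeR 16.1% had an unadjusted p under 0.05 and 53.7% a log2 fold change above 0. Against these shares, few or no calls in a short list do not show that its genes were unchanged. Of 12 leukocyte markers, 8 passed the filter and 0 passed the genotype test in edgeR or DESeq2, with 2 at an unadjusted p under 0.05 in edgeR, both higher in Tgfbr1/2iSMCKO (Cd68, 0.315 and 0.948 CPM, and Cd14, 3.66 and 5.78 CPM in GFPiSMC and Tgfbr1/2iSMCKO). Ptprc, the pan-leukocyte gene, was at 1.78 ± 0.512 and 1.93 ± 1.08 CPM, and Adgre1, Itgam, Cd3e and Siglech were below the filter and at 0 in 3 to 7 of 12 libraries. The descending library of GFPiSMC animal 1, highest for Ifit3 and Rsad2, had a leukocyte marker sum of 11.8 CPM. Of 8 endothelial markers, 7 had a fold change above 0, with a median of 0.95 on the log2 scale. In edgeR Cdh5 passed as higher (0.169 ± 0.192 and 1.26 ± 0.788 CPM, adjusted p = 0.0250), and in DESeq2 Cdh5 and Vwf did. The summed level of the 8 was 67.7 to 101 CPM in GFPiSMC and 56.6 to 107 in Tgfbr1/2iSMCKO. Of 6 fibroblast markers tested, Col14a1 passed as lower (52.7 ± 21.1 and 29.0 ± 11.1 CPM, adjusted p = 0.0316). Of 10 immediate early genes, which respond to tissue handling, 0 passed in edgeR and 5 were lower at an unadjusted p under 0.05, while 4 passed as lower in DESeq2 (Fosb, Egr1, Nr4a1 and Hspa1a), with sums of 420 to 1631 CPM in GFPiSMC and 257 to 1057 in Tgfbr1/2iSMCKO. The part of these markers in the interferon gene differences was not tested.

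Of 36 pairs among the 9 genes, 32 had a Pearson correlation of log2 CPM above 0 over the 12 libraries. The median was 0.47 and the range from -0.41 (Irf9 and Rsad2) to 0.86 (Irf7 and Bst2). The points share library, depth, animal and the genotype difference. Pairs of other genes were not measured for comparison, so these values do not show a movement particular to the 9. Among 12688 other genes averaging 50 counts or more, those most like the mean standardised level of the 9 were Cacnb1 (r = 0.94), Rcl1, Atl2, Zfp606, Baiap2, Gltp, Vgll4, Gm17315, Gm26582 and Maf1 (r = 0.91). None is on a pathway list. The nearest pathway gene was Igtp, in place 20 (r = 0.88). Pathway genes called over 12 libraries ran from there down to Ifitm3 (r = 0.20), and the lowest r of any pathway gene was -0.75.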

How the data were processed

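Deposited gene counts (raw, whole numbers) were used for 12 libraries. Per the labels and methods, the authors sorted GFP+ cells after cold digestion, made libraries with a low-input kit that does not mark strand, and used HISAT2, StringTie and mm10 (GRCm38). The step from StringTie to counts is not given in the sources used here. Symbols and positions came from GENCODE M21, which named 52489 of 52636 genes. Genes were filtered by filterByExpr over the 4 groups, scaled by TMM and tested with edgeR 4.0.16 quasi-likelihood fits in R 4.3.3, with segment and genotype over 12 libraries and with 4 group means for the other contrasts. A gene was called at an adjusted p under 0.05 (Benjamini-Hochberg over 22320 genes). DESeq2 1.42.0 and limma 3.58.1 gave alternatives. CPM are TMM-scaled, and r used log2 CPM with a prior count of 2. The TMM factors were 0.910 to 0.991 in GFPiSMC and 1.01 to 1.08 in Tgfbr1/2iSMCKO libraries, so they did not overlap between genotypes. Fits were also run on simulated data in which every library was drawn independently. That run therefore does not cover the dependence between segments of 1 animal. Members and lists were chosen with earlier results of these data known. Of each pathway list, the text names the genes called or, with none, up to 3 of highest mean CPM, and Ifitm2, H2-K1, B2m, Cd68, Cd14 and Ifit3b were chosen after their values were seen. The common biological coefficient of variation of 0.442 limits precision at this depth. Values of 1 pathway gene are not reported here.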

Additional observations from a re-analysis of the deposited data

Results flagged for a closer look

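Of 36 sets of 6 libraries (9 genes of the report and 9 pathway genes that rose, in each genotype), 6 had a highest library whose gap to the next, as a share of the range, was above Dixon's 95% critical value for 6 values. For independent, normally distributed values chance gives about 1 in 20. These sets share 12 libraries, and 9 of the genes were included because they were called. That rate therefore does not apply here, and the 6 were not tested against chance. In 4 of the 6 it was the descending library of GFPiSMC animal 1, with a share of 0.906 for Ifit3 (52.2 CPM), 0.765 for Rsad2 (5.60 CPM), 0.744 for Ifit1 (10.2 CPM) and 0.722 for Gbp3 (6.48 CPM). Rsad2 had a share of 0.668 in the descending library of Tgfbr1/2iSMCKO animal 2 (2.93 CPM), and Usp18 one of 0.637 in its ascending/arch library (24.7 CPM).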

How the results depend on the processing

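Irf9 was the 1 gene of 9 called over 12 libraries. Under the alternatives the count was 2 with DESeq2, 0 with counts summed per animal, 0 without the filter, 0 with limma-voom, and 0 to 1 with an animal or the descending library of GFPiSMC animal 1 left out (Irf9 without Tgfbr1/2iSMCKO animal 2, and Ifit1 without GFPiSMC animal 1 or its descending library). Deviations from the group means had r from -0.53 to 0.22 between same-numbered animals of the genotypes (6 pairs, 9210 genes). Segments taken to be of 1 animal had r from -0.24 to 0.19 in GFPiSMC and 0.061 to 0.66 in Tgfbr1/2iSMCKO. As these also reach below 0, the check cannot tell whether same-numbered animals share a batch. The replicate block gave a count of 0 (Irf9, edgeR adjusted p = 0.0692). Of pathway genes, 9 were called in the report, 19 with DESeq2 and 6 with counts summed per animal. Those 6 were Gbp3, Gbp7, Usp18 and Xaf1 with others from outside the 9. The count was 16 by library size alone, which moved the median of all genes from 0.04 to 0.16. It was 5 (without GFPiSMC animal 3) to 8 with samples left out. Equal counts need not hold the same genes. The count over all genes moved as well. Called as higher were 402 of 22320 in the report, 891 of 17946 with DESeq2, 147 of 24275 summed and 699 of 22320 by library size alone. For pathway genes the replicate block gave 9, and it changed no count of 0 among the 9 genes within segments or between them. Gbp3, Gbp7, Usp18 and Xaf1 were called under all 16 alternatives, Irgm1 under 14, Psmb10 under 13, H2-T23 under 11, Ifitm3 under 8 and Igtp under 5.

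Some uncalled differences changed sign. Ifit3 was at -0.20 with summed counts and -0.23 with genotype alone, Ifit1 between segments at 0.032 with the animal as a block, Ccl2 at 0.036 by library size alone, and Ccl5 at -0.054 summed and -0.15 with genotype alone. With samples left out, the genotype log2 fold change ranged from -0.43 to 1.37 for Ifit3, -0.70 to 0.57 for Rsad2, -0.56 to 0.35 for Ccl2, -0.38 to 2.19 for Ccl5, -0.065 to 0.60 for Irf3, -0.11 to 0.55 for Mavs and -0.25 to 0.21 for Tbk1. In the descending segment it ranged from -1.27 to 1.69 for Ifit3, -1.88 to 0.53 for Rsad2, -0.043 to 1.36 for Irf7 and -0.0083 to 0.44 for Bst2. The difference between segments ranged from -2.21 to 0.87 for Ifit3, -2.38 to 0.20 for Rsad2, -1.16 to 1.00 for Ifit1, -1.82 to 0.22 for Irf7, -0.54 to 0.10 for Irf1, -0.48 to 0.14 for Irf9, -0.65 to 0.43 for Isg15 and -0.34 to 0.066 for Stat2. Between the segments of GFPiSMC it ranged from -0.64 to 2.43 for Ifit3 and -0.70 to 1.43 for Ifit1. The causes were not tested. GC offsets and leaving out the 1 library were chosen after the data were seen. Isg15, Rsad2 and Irf7 had as few as 3, 9 and 12 counts in a library.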

Other observations

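Of 12695 genes averaging 50 counts or more, Ifit3 had the highest ratio of the descending library of GFPiSMC animal 1 to the highest of the other 11, at 3.40. It was followed by Carm1, an arginine methyltransferase gene, at 3.26 and by Pcdh7, a protocadherin gene, at 3.25, and the paralog Ifit3b was in place 8 at 1.87. Ifit1 in this library was at 0.641 of the highest of the other 11, Irf9 at 0.359 and Bst2 at 0.814. These genes were chosen after their values were seen.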
